A study of Mus musculus with 6 samples.

Results

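The cadherins described here are 8 genes of the family that joins neighbouring cells: Cdh1, Cdh2, Cdh3, Cdh4, Cdh6, Cdh11, Cdh13 and Cdh15. They were chosen by name, with earlier results of these data known, among 18193 genes named on the array. All 8 were found, through 17 probe sets that the platform annotation gives to 1 of these genes alone, of 45037 probe sets in all. Where several probe sets read 1 gene, the one brightest on average over the 6 arrays stands for it and the others are given beside it. Values are log2 expression values, so a difference of 1 is a doubling. Of the 17 probe sets, 13 had a mean of 5 or more and were tested, and each of the 8 genes had at least 1 such probe set.

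RNA came from tissue labelled as retinal pigment epithelium (RPE), a single sheet of cells that lines the outer side of the retina, of mouse embryos at embryonic day 13.5. The series sets 3 albino pools against 3 control pools called pigmented, each pool made from 3 to 4 littermates and read on 1 array. The mutated gene and the strains are not named in the labels, so albino and pigmented stand for all that is known of the genotypes. The protocol describes an eyecup freed of cornea, lens, neural retina and outside tissue, while the sample descriptions speak of the whole eye region, and markers of tissue other than RPE read on every array.

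Classical cadherins are membrane proteins that bind the same cadherin on the next cell through calcium-dependent outer domains and hold the actin skeleton through catenins inside the cell. Type I members (Cdh1, Cdh2, Cdh3, Cdh4, Cdh15) and type II members (Cdh6, Cdh11) differ in how the outermost domain engages its partner. Cdh13 is tethered by a lipid anchor and lacks the tail that binds catenins, so it belongs to the family by its outer domains only. E-cadherin (Cdh1) and P-cadherin (Cdh3) are known from epithelia, N-cadherin (Cdh2) from neural tissue, lens, muscle and mesenchyme, cadherin 11 from mesenchyme, and M-cadherin (Cdh15) from myoblasts.

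The promoters are shown for Cdh15, whose genotype difference was the largest of the 8, and for Cdh6, which was also higher in albino pools. These were the 2 of the 8 genes found in the promoter table used, in a search that left out entries on 1 chromosome. A member on that chromosome would thus not be shown. The shares of all promoters given below were counted without that omission. The sequences come from RefSeq on build GRCm38.p6 and run from 250 bases before to 50 bases after the annotated start, at chr8:122848124-122848423 on the plus strand for Cdh15 and chr15:13173626-13173925 on the minus strand for Cdh6. Capitals mark CANNTG, the E-box letters that basic helix-loop-helix factors read, a class that holds the myogenic regulators. The motif reads the same on both strands.
Cdh15: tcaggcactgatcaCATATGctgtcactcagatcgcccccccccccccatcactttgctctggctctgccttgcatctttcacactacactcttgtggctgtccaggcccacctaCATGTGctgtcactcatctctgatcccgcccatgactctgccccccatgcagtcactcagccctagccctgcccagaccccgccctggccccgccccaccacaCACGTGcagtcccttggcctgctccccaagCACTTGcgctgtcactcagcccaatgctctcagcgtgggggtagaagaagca
Cdh6: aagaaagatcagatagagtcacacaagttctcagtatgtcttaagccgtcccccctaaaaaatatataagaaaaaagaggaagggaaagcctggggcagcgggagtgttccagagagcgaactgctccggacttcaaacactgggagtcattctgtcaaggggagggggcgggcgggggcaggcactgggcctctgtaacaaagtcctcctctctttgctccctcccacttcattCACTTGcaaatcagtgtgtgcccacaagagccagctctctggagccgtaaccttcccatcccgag
The Cdh15 window held 4 copies of CANNTG, starting at -236, -135, -32 and -2 from the annotated start, and the Cdh6 window held 1, at -15. Of 32851 promoters of the same length, 72.3% held at least 1 copy and 6.49% held 4 or more. Neither window held CACCTG or its reverse complement CAGGTG, the letters read by the Snail and Zeb repressors (20.2% of promoters), nor CAGCTG (16.3%), another E-box, which reads the same on both strands. These are matches of letters and not measured binding.

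The first principal component of the tested probe sets held 68.9% of the variance and set the arrays numbered 1 of both genotypes apart from the other 4. Fits blocked on the replicate number and values within each number are therefore given where they matter. RPE markers had list means of 9.38 to 9.56 on albino and 9.56 to 9.80 on pigmented arrays, and the mature RPE genes Rpe65, Lrat and Rgr had means below 5. Mesenchyme markers had list means of 10.64 to 10.85 on all arrays, skeletal muscle markers 7.69 to 8.27 on albino and 6.43 to 7.22 on pigmented arrays. Lens markers stood at 4.96 in albino replicate 3 and at 7.06 to 7.29 on the other 5 arrays. Probe sets bind with unlike strength, so a cadherin is compared here with itself across arrays, not with another cadherin.

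Between the genotypes, M-cadherin (Cdh15) had the largest difference of the 8, with a level higher in every albino pool than in any pigmented pool. The pools of Cdh13 were parted in the same way, and Cdh6 was higher by a smaller and less even amount. The epithelial pair Cdh1 and Cdh3, and Cdh2, Cdh4 and Cdh11, had differences of at most 0.10 in size. No cadherin passed the threshold of 0.05 after adjustment over all probe sets in limma.

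**Figure D1:**
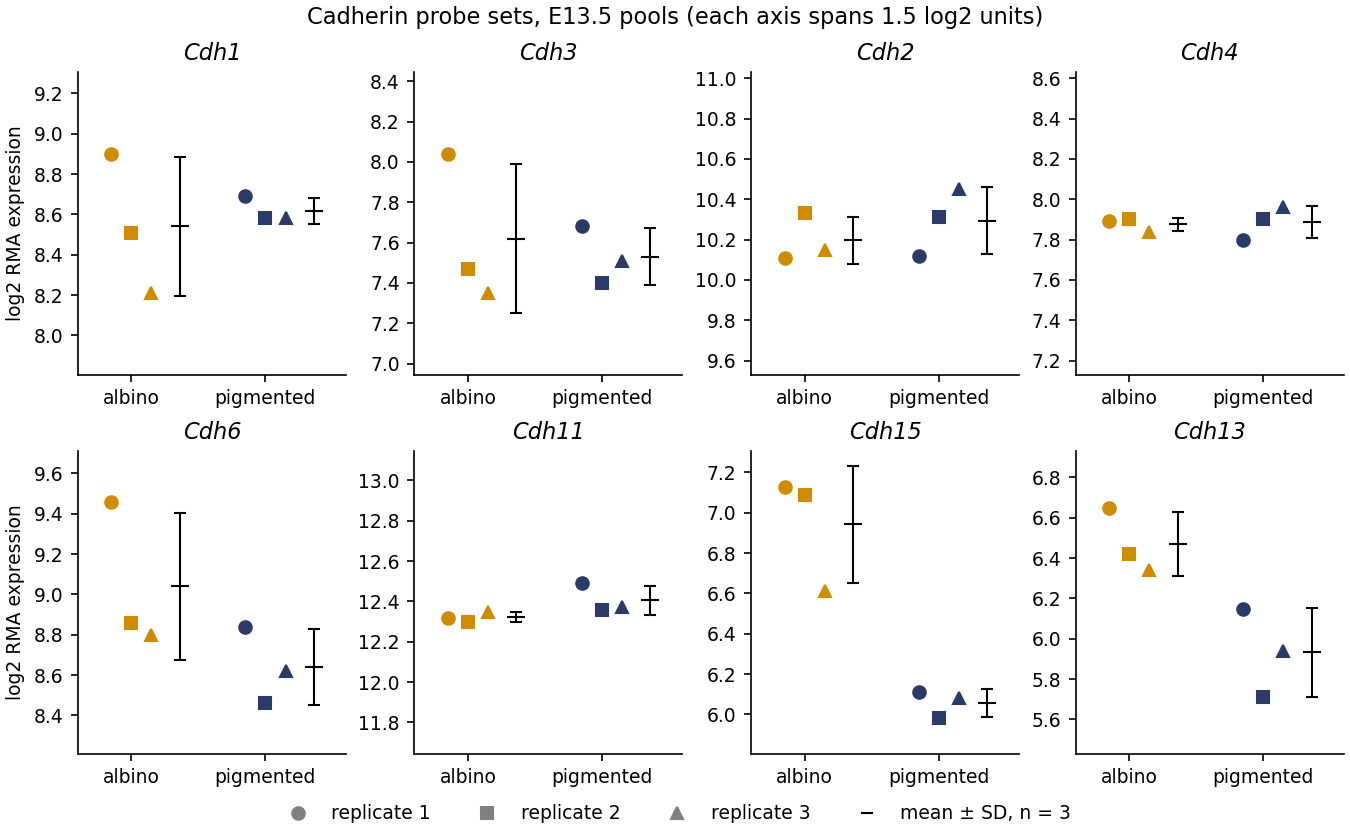
Log2 expression of the representing probe set of each of the 8 cadherins, by genotype. Points are single pools, with the shape giving the replicate number, and black marks are the mean ± SD of 3 pools; every vertical axis spans the same 1.5 log2 units. Cdh15 and Cdh13 show no overlap between the genotypes, Cdh11 is parted by 0.01, and Cdh1, Cdh3 and Cdh6 spread more within the albino than within the pigmented pools.

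Cdh1 encodes E-cadherin, the main cadherin of surface epithelia and lens epithelium. The albino pools read 8.90, 8.51 and 8.21 for replicates 1, 2 and 3, and its pigmented pools 8.69, 8.58 and 8.58. The albino pools lay on both sides of the pigmented pools, which were close together. The genotype means were 8.54 ± 0.35 and 8.62 ± 0.06 (SD, n = 3 each). The difference, albino minus pigmented, was -0.08 with a 95% confidence interval of -0.50 to 0.35 (limma adjusted p = 0.999). Without albino replicate 3 the sign turned, to 0.088. That array also had the low lens list mean given above, and the part of lens in the Cdh1 value was not tested. No second probe set named Cdh1 alone.

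Cdh3 encodes P-cadherin, which the pigment epithelium of the eye is known to use, together with skin appendages. The gene is the direct neighbour of Cdh1, with 0 protein-coding genes between them in the gene table used. Replicates 1, 2 and 3 read 8.04, 7.47 and 7.35 among albino pools and 7.68, 7.40 and 7.51 among pigmented ones. Replicate 1 was the highest pool of each genotype, and the groups overlapped. The genotype means were 7.62 ± 0.37 and 7.53 ± 0.14 (SD, n = 3 each), a difference of 0.09 (95% confidence interval -0.38 to 0.56). Without albino replicate 1 the difference was -0.12. The other Cdh3 probe set had a mean of 4.71, below the filter, and a difference of -0.09.

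Cdh3 had values close to the pattern of markers listed for epithelia outside the RPE. Whether RPE also expresses some of these markers was not tested. Those markers (Epcam, keratins, claudins and others, 20 tested) had list means of 7.84, 7.42 and 7.27 in albino replicates 1 to 3 and of 7.45, 7.22 and 7.31 in pigmented ones. After each profile was centred on its own mean over the 6 arrays, Cdh3 and this list differed by a root mean square of 0.066, the smallest value for Cdh3 among 13 marker and partner lists. Cdh1 differed from the list by 0.142, and lay nearer to erythroid markers (0.122) and to melanoblast and Schwann precursor markers (0.131). For RPE markers the same measure was 0.242 for Cdh3 and 0.202 for Cdh1. This measure describes 6 arrays, 2 of which carry the replicate 1 shift, and has no test. It also counts the size of changes, so a profile with small changes lies far from one with large changes.

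Of all 12098 tested genes, 7835 were higher in albino pools, with a median difference of 0.043. Within the epithelium list 17 of 20 tested genes were higher and 3 lower, the lowest being the keratin gene Krt18 (-0.22). The median difference of the list was 0.13. That median was 0.012 without albino replicate 1, 0.215 without albino replicate 2 and 0.235 without albino replicate 3, and the list means within the replicate numbers differed by 0.39, 0.20 and -0.047. Epcam, an adhesion molecule of simple epithelia, stood at 0.44 (SE 0.16), the basal keratin gene Krt15 at 0.61 (SE 0.23), the tight junction gene Cldn4 at 0.42 (SE 0.21) and Grhl2, a regulator of epithelial junction genes, at 0.23 (SE 0.14). None passed the adjusted threshold.

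RPE markers were lower in 14 of 14 tested genes, with a median of -0.19, led by Ttr (-0.56), Trpm3 (-0.32), Mlana (-0.26) and Kcnj13 (-0.24), and with 0 past the adjusted threshold in limma. At an unadjusted p under 0.05 stood 2, both lower, against 1.46% of all tested probe sets on the lower side. The median was -0.12 without albino replicate 2 and -0.10 without pigmented replicate 1, and the list means within the replicate numbers differed by -0.25, -0.28 and -0.051.

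**Figure D2:**
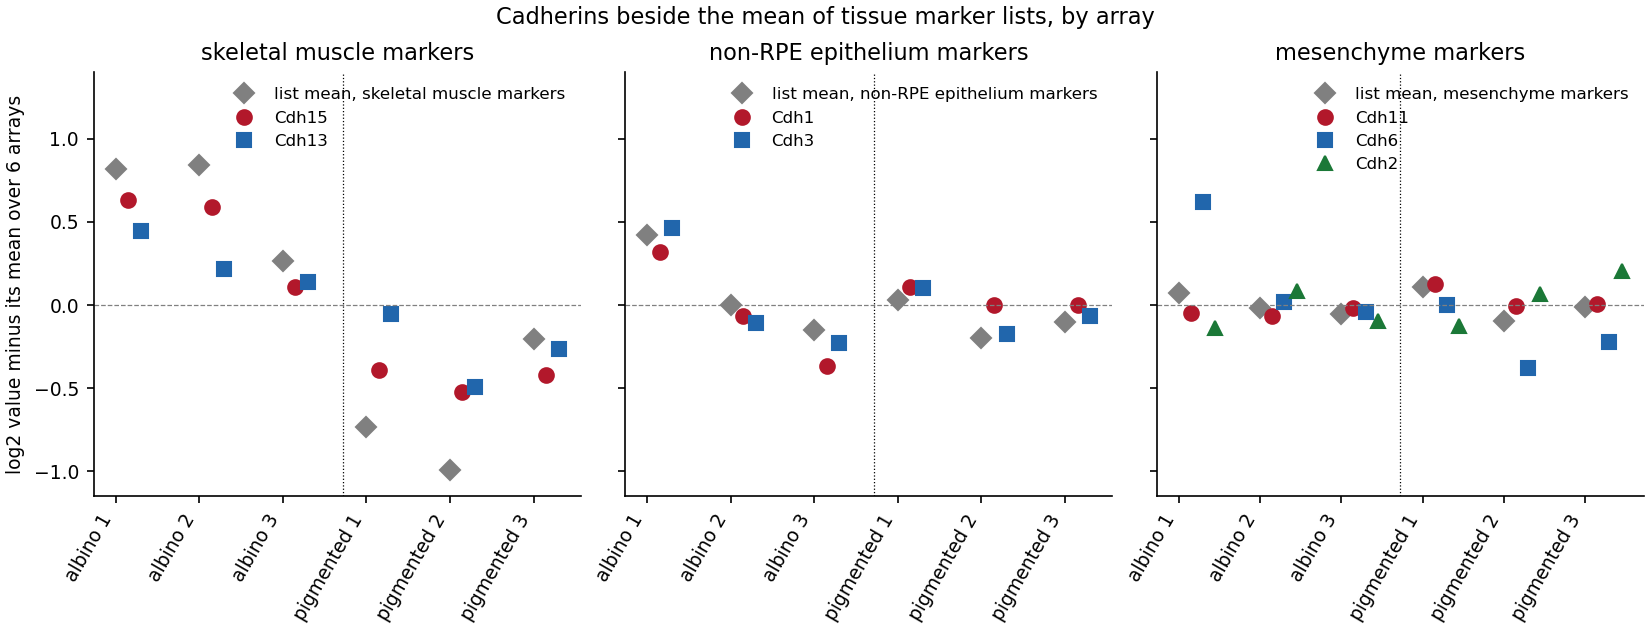
Log2 values of cadherins and of the mean of 3 marker lists on each array, each minus its own mean over the 6 arrays; grey diamonds are the list mean, coloured symbols are single cadherins, and the dotted line parts the genotypes. Cdh15 is above its mean in the 3 albino pools and below it in the 3 pigmented pools, as the muscle list mean is, while Cdh3 lies close to the epithelium list and Cdh11 close to the flat mesenchyme list.

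Cdh2 encodes N-cadherin, used by the neural retina, lens fibres and many mesenchymal cells. It read 10.11, 10.33 and 10.15 in the albino pools, in the order of their numbers, against 10.12, 10.31 and 10.45 in the pigmented pools. The 2 arrays numbered 1 were nearly equal, as were the 2 numbered 2, and only replicate 3 differed, by -0.30. The genotype means differed by -0.10, with a 95% confidence interval of -0.39 to 0.19, and limma gave an adjusted p = 0.999. The second Cdh2 probe set, at means of 8.76 and 8.73, gave 0.03. Neural retina markers, which share this cadherin, were lower in 10 of 12 tested genes with a median of -0.22, which became -0.42 without pigmented replicate 1 and -0.098 without pigmented replicate 3. At an unadjusted limma p under 0.05 stood 0 of them, and 7, all lower, with the replicate block. With that block 18.0% of all tested probe sets stood there, in either direction. Retina markers and Cdh2 differed in profile by a root mean square of 0.161, while the list of cadherin repressors and E-box factors (0.096) and endothelial markers (0.156) lay nearer.

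Cdh4 encodes R-cadherin, known from retina and forebrain. It was the flattest of the 8, with all pools between 7.80 and 7.96. The difference was -0.01 (95% confidence interval -0.22 to 0.20), and the sign turned without albino replicate 3 (0.0083) and without pigmented replicate 3 (0.027). A second probe set, with pools between 7.43 and 7.65, gave 0.10, and another had a mean of 2.735, below the filter, with a difference of -0.12.

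Cdh11 encodes cadherin 11, a type II cadherin of mesenchyme. Albino pools read 12.32, 12.30 and 12.35, and pigmented pools 12.49, 12.36 and 12.37. Every albino pool was below every pigmented pool, but the highest albino and the lowest pigmented pool were 0.01 apart, the last decimal of the deposited values. The difference was -0.08 (95% confidence interval -0.29 to 0.12), and the second probe set, at 9.74 to 9.90, gave -0.09 with the pools again apart. After median centring of the arrays, 2 of the 8 cadherins instead of 3 had pools apart. The share of all probe sets was not computed for that setting.

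Mesenchyme markers lay on both sides. Of 19 tested, 10 were higher and 9 lower in albino pools, with a median of 0.077. The median turned sign without albino replicate 1 (-0.03) and without pigmented replicate 2 (-0.067), and was 0.12 without pigmented replicate 1 and 0.038 without pigmented replicate 3. In limma 0 passed the adjusted threshold and 0 stood at an unadjusted p under 0.05, or 8 of 19 with the replicate block, against 18.0% of all tested probe sets with that block. The periocular factor gene Foxc2 (-0.25), the pericyte and mesenchyme receptor gene Pdgfrb (-0.25) and Twist1 (-0.25) stood on the lower side, and the fibronectin gene Fn1 (0.31) on the higher. Cdh11 and the mesenchyme list had centred profiles 0.067 apart. The endothelial list was slightly nearer to Cdh11, at 0.060. All 3 profiles were flat, so this measure separates them little.

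Cdh6 encodes K-cadherin, a type II cadherin known from kidney, neural tube and neural crest. Levels in albino pools were 9.46, 8.86 and 8.80, and in pigmented pools 8.84, 8.46 and 8.62. Albino replicate 1 was far above the others, and the lowest albino pool was below the highest pigmented pool. The difference was 0.40 (SE 0.20, limma adjusted p = 0.999), or 1.32-fold, and 0.19 without albino replicate 1. Within the replicate numbers the differences were 0.62, 0.40 and 0.18.

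The second Cdh6 probe set gave the same difference with less spread. There the albino pools read 7.36, 7.15 and 7.10 and the pigmented pools 6.87, 6.75 and 6.79, with no overlap. Here the estimate of 0.40 had a 95% confidence interval of 0.15 to 0.65, with an adjusted p = 0.776 from limma. Over the pools, the profile of the Cdh6 representing probe set was nearest to the list of epithelium markers outside the RPE, at a root mean square of 0.128, and 0.269 from mesenchyme markers. Whether epithelium in the pools carries the Cdh6 values was not tested.

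Cdh15 encodes M-cadherin, which joins myoblasts and is a marker of skeletal muscle precursors and satellite cells. The 3 albino pools read 7.13, 7.09 and 6.61 and the 3 pigmented pools 6.11, 5.98 and 6.08. The lowest albino pool, replicate 3, was 0.50 above the highest pigmented pool, and the pigmented pools were close together. The genotype means were 6.94 ± 0.29 and 6.06 ± 0.07 (SD, n = 3 each). The difference was 0.89 (SE 0.16, 95% confidence interval 0.51 to 1.26), or 1.85-fold. It had an unadjusted p of 0.00091 in limma, and adjusted over all probe sets it did not pass (adjusted p = 0.50). Within the replicate numbers the differences were 1.02, 1.11 and 0.53, all higher in albino, and leaving out any single array gave 0.79 to 1.05. No other probe set named Cdh15 alone.

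The markers of skeletal muscle, listed with earlier results of these data known, lay on the same side as Cdh15. Of 21 tested, 20 were higher in albino pools, with a median difference of 1.503. In limma 19 stood at an unadjusted p under 0.05, all higher, against 3.22% of all tested probe sets on the higher side, and 0 passed the adjusted threshold. The mean of the list was 8.07 ± 0.33 over albino pools and 6.78 ± 0.40 over pigmented pools (SD, n = 3 each). Within the replicate numbers the list means differed by 1.55, 1.83 and 0.47, with replicate 3 the smallest, as for Cdh15. The pigmented pools ordered differently: the muscle list was highest in replicate 3 (7.22) and Cdh15 in replicate 1. Muscle lies around the eye, and in pooled tissue more muscle cells and more RNA of these genes per cell cannot be told apart. The part of muscle in the Cdh15 difference was not tested.

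The Cdh15 difference was smaller than that of most muscle markers, since 16 of the 21 had a larger difference and 5 a smaller one. The myogenic regulators Myf5 (1.67, SE 0.25) and Myog (1.71, SE 0.29), the progenitor factor gene Pax7 (1.26, SE 0.19) and the giant sarcomere protein gene Neb (1.61, SE 0.28) had the smallest p of the list. Ckm, a creatine kinase gene of maturing muscle, was the one marker on the lower side, at -0.20. Among the 13 lists, muscle had the centred profile nearest to Cdh15, at a root mean square of 0.291, with epithelium markers next at 0.374.

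Of 12097 other genes, the 3 whose centred values over the 6 arrays lay nearest to Cdh15 were Tppp3, at a root mean square difference of 0.076, Adgrg6, at 0.078, and Cga, at 0.087. Tppp3 encodes a tubulin-binding protein, Adgrg6 an adhesion receptor known from Schwann cells, and Cga the shared alpha subunit of pituitary glycoprotein hormones. Their albino minus pigmented differences were 0.92, 0.82 and 0.76. None of them was on the muscle list, but this measure sets genes with larger changes farther off. Since 16 muscle markers had a larger difference than Cdh15, the search does not tell whether Cdh15 shares their pattern. Only Cdh15 spanned more than 1 log2 unit over the arrays, so the search was made for no other cadherin.

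Cdh13 encodes T-cadherin, the lipid-anchored member, known from vessels, neurons and smooth muscle. Expression was 6.65, 6.42 and 6.34 in the albino pools and, for pigmented ones, 6.15, 5.71 and 5.94. Every albino pool was above every pigmented pool, with 0.19 between the nearest ones. The genotype means were 6.47 ± 0.16 and 5.93 ± 0.22 (SD, n = 3 each), a difference of 0.54 (95% confidence interval 0.19 to 0.89) or 1.451-fold. The unadjusted limma p was 0.0088, and the adjusted p = 0.844 did not pass. Within the replicate numbers the differences were 0.50, 0.71 and 0.40.

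A second Cdh13 probe set, with albino pools at 5.89, 5.68 and 5.43 and pigmented pools at 5.59, 5.07 and 5.03, gave 0.44 (SE 0.19). There albino replicate 3 was below pigmented replicate 1, so the groups overlapped. Another 2 Cdh13 probe sets had means of 3.54 and 2.60, below the filter, and differences of -0.06 and -0.08. The profile of the gene lay nearest to epithelium markers outside the RPE (root mean square 0.204) and macrophage markers (0.205), and 0.458 from muscle markers. This measure counts the size of changes, and the muscle list had a median difference of 1.503 against 0.54 for Cdh13. It therefore does not tell whether Cdh13 shares the muscle pattern at a smaller size. Endothelial markers, from cells in which this cadherin is known, had a median difference of 0.01 with 7 of 12 higher, and of -0.022 without pigmented replicate 1. The part of any of these cells in the Cdh13 difference was not tested.

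**Figure D3:**
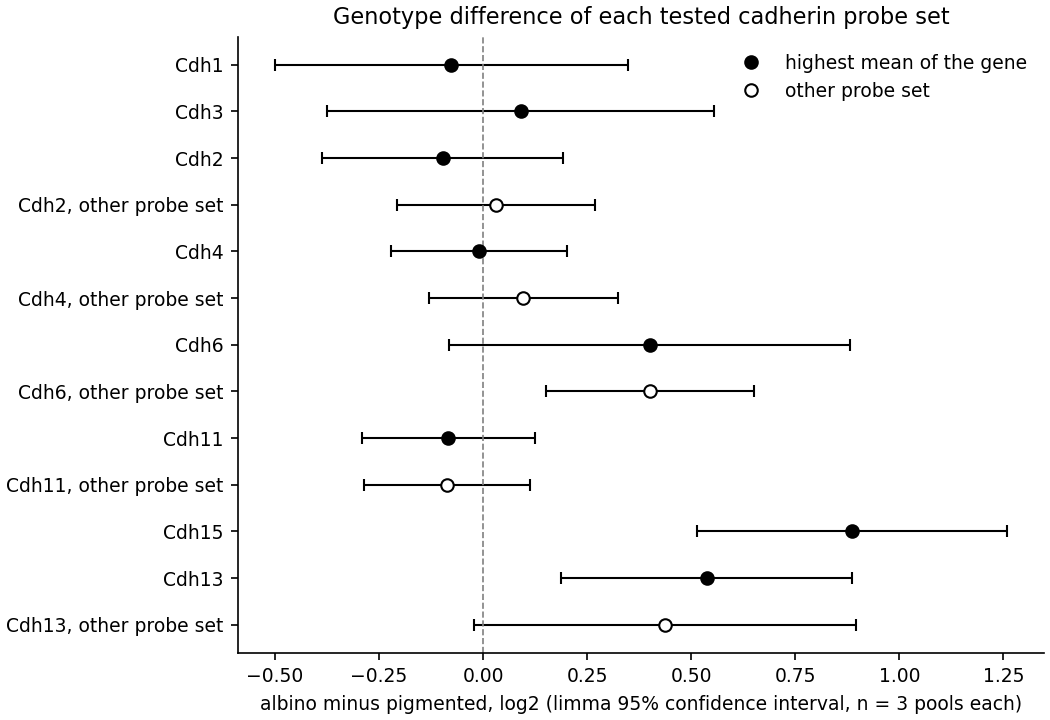
Albino minus pigmented difference in log2 units of each of the 13 tested cadherin probe sets, with limma's 95% confidence interval from 3 pools a genotype. Filled points are the probe set with the highest mean of the gene and open points are others; the intervals of Cdh15 (0.51 to 1.26), of Cdh13's filled point (0.19 to 0.89) and of Cdh6's open point (0.15 to 0.65) lie above 0, before any adjustment for the number of probe sets.

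Counted over the family, 4 of the 8 cadherins were higher and 4 lower in albino pools, with a median difference of 0.04. Of all 23591 tested probe sets 15183 were higher and 8408 lower, with a median of 0.047. In limma 0 of the 8 passed the adjusted threshold (adjusted p of 0.50 to 0.999), as did 0% of all tested probe sets. At an unadjusted p under 0.05 stood 2 of the 8, Cdh15 and Cdh13, both higher, against 4.68% of all tested probe sets in either direction and 3.22% on the higher side. Pools did not overlap between the genotypes for 3 of the 8, with Cdh15 and Cdh13 higher and Cdh11 lower, against 10.8% of all tested probe sets in either direction, 7.39% higher and 3.44% lower. With the replicate number as a block, 3 of the 8 stood at an unadjusted p under 0.05, with Cdh6 added, but so did 18.0% of all tested probe sets. The block left 0 of the 8 past the adjusted threshold, with adjusted p = 0.192 for Cdh15 and Cdh13 and 0.20 for Cdh6.

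Among other cadherins of the superfamily, Cdh9 had a difference close in size to that of Cdh13. Of 15 listed, 13 were named on the array and 4 had a mean of 5 or more. Cdh9, a type II cadherin of neurons, stood at 6.99, 6.76 and 6.24 in albino pools and at 6.29, 5.97 and 6.14 in the pigmented ones. Albino replicate 3 lay among the pigmented pools, and the difference was 0.53 (SE 0.20, limma adjusted p = 0.999). Cdh5, the cadherin of endothelial junctions, differed by -0.16 (SE 0.11), Cdh19, known from Schwann precursors, by 0.08 (SE 0.13) and Cdh10 by 0.023 (SE 0.094). The 9 others (Cdh7, Cdh8, Cdh16, Cdh17, Cdh18, Cdh20, Cdh22, Cdh23 and Cdh26) were below the filter.

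Genes of the proteins that work with classical cadherins at the junction had differences of -0.33 to 0.21. Of 25 tested partners of the adherens junction, 9 were higher, 15 lower and 1 equal in albino pools, with a median of -0.013, whose sign turned without albino replicate 2 (0.023), albino replicate 3 (0.04) or pigmented replicate 1 (0.027). In limma 0 passed the adjusted threshold and 0 stood at an unadjusted p under 0.05. With the replicate block 1 of the 25 stood at that p, Fmn1, against 18.0% of all tested probe sets. Ctnnb1, the gene of beta-catenin, which ties cadherin tails to alpha-catenin and also serves Wnt signalling, had means of 13.22 ± 0.19 and 13.23 ± 0.22 (SD, n = 3 each). Its difference of -0.013 had a 95% confidence interval of -0.38 to 0.35. Ctnna1, the alpha-catenin gene of most epithelia, differed by -0.10 (SE 0.11), and Ctnnd1, the gene of p120-catenin, which keeps cadherins at the surface, by 0.053 (SE 0.12). Jup, the gene of plakoglobin, differed by -0.01 (SE 0.14). The neural and heart alpha-catenin genes Ctnna2 and Ctnna3 were below the filter.

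Among the other partners, those with the smallest p were Fmn1, a formin gene of junctional actin (-0.33, SE 0.19, or 0.063 with the replicate block), Adam10, the protease gene that sheds cadherin outer domains (-0.12, SE 0.086), Vezt, the vezatin gene (0.21, SE 0.15), and the polarity gene Pard3 (0.18, SE 0.14). Adam10 values were 11.03, 10.97 and 10.96 in albino pools against 11.17, 11.12 and 11.04, with 0.01 between the nearest pools. It was the only one of the 25 whose pools did not overlap, against 10.8% of all tested probe sets. The nectin genes, whose products start adherens junctions beside cadherins, were tested for all 4 members and lay between -0.063 (Nectin1) and 0.15 (Nectin2).

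Repressors of Cdh1 and related E-box factors had 5 of 9 genes higher, 4 lower and a median of 0.0033, which ran from -0.10 without pigmented replicate 1 to 0.020 without albino replicate 2 or 3. In limma 0 passed the adjusted threshold and 0 stood at an unadjusted p under 0.05. With the replicate block 4 of the 9 did, against 18.0% of all tested probe sets in either direction. These were Zeb2 on the higher side and Twist1, Twist2 and Tcf4 on the lower, and 0 passed after adjustment. Snai2, the Slug gene of neural crest and mesenchyme, stood at 11.03 ± 0.03 and 11.02 ± 0.12 (SD, n = 3 each). Twist1 differed by -0.25 (SE 0.12), Tcf4 by -0.20 (SE 0.11), Twist2 by -0.15 (SE 0.098) and Snai1 by 0.097 (SE 0.15). Zeb2 spread widely within both genotypes (SD of 0.69 and 0.80), and its difference of 0.27 had a confidence interval of -0.88 to 1.42 in the fit without the block. Within the replicate numbers it differed by 0.40, 0.31 and 0.10, with an SE of 0.078 under the block.

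**Figure D4:**
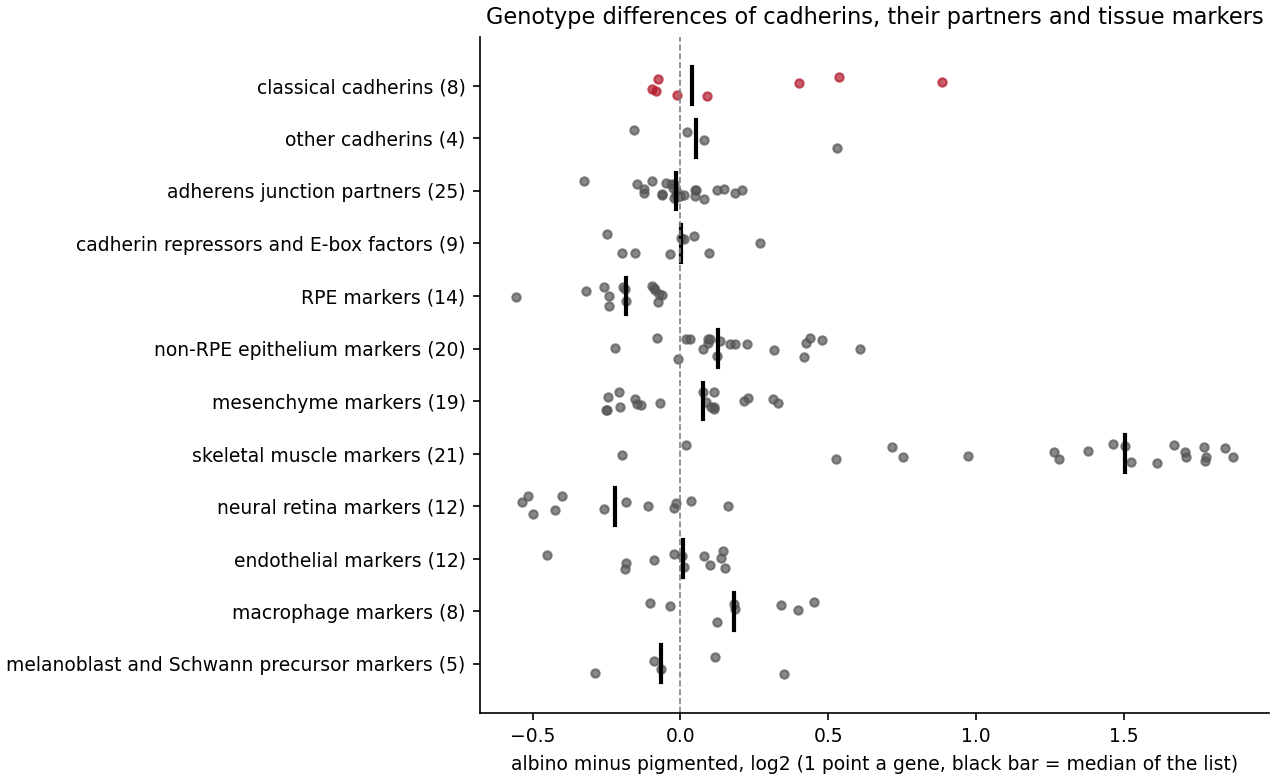
Albino minus pigmented differences in log2 units for the 8 cadherins (red) and for the tested genes of partner and marker lists (grey), 1 point a gene, with the black bar at the median of each list and the number of genes in brackets. The cadherin median is 0.04, with Cdh3, Cdh6, Cdh13 and Cdh15 to its right, and the muscle list has the rightmost median, at 1.503. The lens list (median -0.83, or -0.01 without albino replicate 3) and the erythroid list (median 0.045) are not drawn.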

How the data were processed

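Expression was measured on 6 arrays, 3 albino and 3 pigmented pools, with biotin-labelled cRNA from 100 ng of total RNA. The deposited values are log2 expression values that the authors computed. The submitters' processing notes name Affymetrix Expression Console (1.1) and the RMA method, which corrects background, quantile-normalizes the arrays and summarises each probe set. A shift shared by all transcripts is thereby removed. The genome build, and whether 1 run normalized all arrays, are not given in the sources used here. Precision is limited by the number of arrays, and median log2 values were 5.18 to 5.21.

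Of 45101 probe sets, 64 controls were left out; 34945 named 1 gene, 932 several and 9160 none in the annotation used, and 34741 of those with 1 gene matched a GRCm38.p6 gene table by Entrez ID. Probe sets with a mean below 5 were left out, which kept 23591. The comparison, albino minus pigmented, used lmFit and eBayes of limma 3.58.1 (R 4.3.3, two-sided). Its p-values were adjusted by Benjamini-Hochberg over every tested probe set, at a threshold of 0.05. SE and intervals come from that fit. The method was tested on simulated data with independent noise. Those data held no shift shared by same-numbered arrays, so that test does not cover the replicate structure seen here. No set test was run. The 13 lists hold 194 entries, of which 186 were named.

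Members and lists were chosen with earlier results of these data known. Named were the 8 cadherins, the partners and markers with the smallest p of a list (up to 4) or needed for a level, and the 3 genes nearest to a cadherin whose range exceeded 1. Ctnnb1, Ctnna1, Ctnnd1, Jup, the nectins, Cdh5, Cdh10, Cdh19, Snai2, Zeb2 and Ckm are named for their role or place in a list.

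Pools of a genotype are labelled biological replicates. Deviations from the genotype means correlated at 0.863, 0.687 and 0.448 between arrays numbered 1, 2 and 3. The labels do not say what a number shares, so the fit as reported used genotype alone, without pairing. Same-numbered arrays were paired, on the strength of the data, only in the replicate block and in the differences within replicate numbers. Alternatives were the replicate block, median centring, cyclic loess, no filter or a filter at 7, array weights, a trended robust prior, averaged probe sets, no _x_at or _s_at probe sets, and leaving out arrays.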

Additional observations from a re-analysis of the deposited data

How the results depend on the processing

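No cadherin passed the adjusted threshold under any alternative run, nor did any probe set under those that keep the whole table of probe sets. Cdh15, Cdh13, Cdh6, Cdh2 and Cdh11 kept their sign in all alternatives that gave a value, with Cdh15 between 0.79 and 1.05, Cdh13 between 0.425 and 0.645 and Cdh6 between 0.19 and 0.52. Cdh15 and Cdh13 were untested with a filter at a mean of 7, and Cdh13 with averaged probe sets. Cdh3 turned sign with array weights (-0.043), averaged probe sets (-0.0017) and without both arrays numbered 1 (-0.045), and ranged from -0.12 to 0.225 when single arrays were left out. Leaving out single arrays took Cdh1 from -0.26 to 0.088 and Cdh4 from -0.053 to 0.027. Probe sets at an unadjusted limma p under 0.05 numbered 1104 of 23591 in the fit as reported. They numbered 4243 with the replicate block, 3510 with array weights and 3052 without both arrays numbered 1. With the filter at 7 the count was 598, of only 13255 tested. Without single arrays it was 567 to 1418 (567 without pigmented replicate 2, 610 without albino replicate 2). With the filter at 7, 6 of the 8 cadherins were tested, of which 0 stood at that p in limma and 1 had pools apart. Without both arrays numbered 1, 5 of the 8 had pools apart, but there 2 pools face 2 and part more easily. The share of all probe sets with pools apart was not computed under these alternatives. The block changed no adjusted call. The cause of these moves was not tested. Some alternatives hold fewer probe sets or arrays.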
